A study of Homo sapiens with 12 samples.

Results

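The genes described here are 10 that mark the secretory luminal cell of the prostate: MSMB, ACP3, FOLH1, STEAP1, AMACR, KRT8, KRT18, KRT19, FOXA1 and HOXB13. They were taken by symbol, from 11963 genes named by the array's annotation, and each of their probe sets was read. Total RNA had been measured on 12 arrays from LNCaP, an established prostate cancer line. The cells had been transfected with 1 of the microRNAs miR-130a, miR-203 and miR-205, or with a scramble microRNA as control. Each of the 4 groups held 3 arrays named biological replicates. The cells of all groups were the same line and were all transfected. The dose, the time after transfection and the microRNA arm were not given in the sources used here. Each comparison with scramble asked which of these transcripts differed once a microRNA had been put into the cells.

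Luminal cells line the prostatic glands and release the proteins of seminal plasma, among them beta-microseminoprotein (MSMB) and prostatic acid phosphatase (ACP3). Their shape rests on filaments of the paired simple keratins KRT8 and KRT18, and their gene programme needs the transcription factors FOXA1 and HOXB13. FOLH1 (prostate-specific membrane antigen), STEAP1 and AMACR are known for high levels in prostate cancer. A microRNA pairs through its seed, bases 2 to 8, with sites in messenger RNAs and lowers their stability or translation.

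The 2 mature microRNAs below are shown as reference entries for miR-203 and miR-205. The labels do not give the arm, so the arms shown are assumed. They are from RefSeq (GRCh38.p14), in capitals at the seed, and the seeds of the 2 differ. hsa-miR-203a-3p is encoded at chr14:104117469-104117490 on the plus strand and hsa-miR-205-5p at chr1:209432166-209432187 on the plus strand.
hsa-miR-203a-3p: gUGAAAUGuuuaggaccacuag
hsa-miR-205-5p: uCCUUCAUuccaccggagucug

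The 12 arrays shared 1 scale, with medians between 2.76 and 2.78 log2. Across the 6821 genes tested, r was 0.992 to 0.997 between arrays of the same group and 0.964 to 0.986 between groups. The number of arrays limits the precision. A gene was tested where its brightest probe set exceeded the median of the array on 3 or more arrays, and 9 of the 10 luminal genes met that rule. The basal keratins KRT5, KRT14 and KRT15 were above the median on no array. The basal genes ITGA6 (3.52 to 4.16 log2), DST (2.93 to 3.37) and EGFR (2.77 to 4.17) were above it on all 12. Of these 3, 1 was called higher and 0 lower than scramble in each microRNA group, beside 23.6%, 36.2% and 26.1% of all genes called for miR-130a, miR-203 and miR-205. Of the neuroendocrine genes, DDC read 7.90 to 8.75 log2 and ENO2 2.70 to 2.96. Of these 2, 0 were called higher than scramble in any group, beside the same shares of all genes. In miR-130a and in miR-203 cells 1 was called lower, and in miR-205 cells 0. Markers of other cell types above the median on any array were 3 of 12 named basal genes and 2 of 12 neuroendocrine genes. The same held for 5 of 14 fibroblast and smooth muscle genes and 0 of 9 leukocyte and endothelial genes. The mean level of the fibroblast and smooth muscle list was 3.06 to 3.09 log2 in miR-130a cells, 2.93 to 2.95 in miR-203 cells, 2.96 to 2.97 in miR-205 cells and 2.99 to 3.03 in scramble cells. Within it LUM and DCN stayed within 2.36 to 2.37 log2, next to the lowest value of the table, while FN1 read 7.70 to 8.81, ACTA2 3.09 to 4.19, COL1A1 up to 3.46 and VIM 2.66 to 3.48. Of its 4 tested genes, FN1 and ACTA2 were called higher in miR-130a cells than in scramble cells (0.51 and 0.44 log2). FN1, ACTA2 and VIM were called lower in miR-203 cells (-0.43, -0.33 and -0.28 log2), and VIM lower in miR-205 cells (-0.55 log2). These calls stand beside 23.6%, 36.2% and 26.1% of all genes called for miR-130a, miR-203 and miR-205. The part of these genes in the results below was not tested. In bulk RNA, fewer cells of a type and less RNA per cell cannot be told apart.

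The 3 microRNAs differed in which luminal genes they moved. In miR-130a cells MSMB rose, and none of the other 8 tested luminal genes passed the threshold. In miR-203 cells ACP3 rose while STEAP1 and KRT18 fell (-0.41 and -0.26 log2). In miR-205 cells the probe sets shared by AMACR and its read-through neighbour rose most, while KRT18 and ACP3 fell (-0.31 and -0.22 log2). FOXA1 and HOXB13, the transcription factors of the set, passed the threshold in no comparison with scramble.

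Counted by adjusted p under 0.05 (limma, Benjamini-Hochberg over all 6821 genes), 1 of the 9 tested luminal genes was called in miR-130a against scramble, where 23.6% of all genes were called. In miR-203 against scramble 3 of 9 were called, 1 higher and 2 lower, beside 36.2% of all genes (17.3% higher and 18.9% lower). In miR-205 against scramble 3 of 9 were called, 1 higher and 2 lower, beside 26.1% of all genes (11.3% higher and 14.8% lower). Over all probe sets with 1 symbol that were tested, 2, 3 and 3 of those of the luminal genes were called in the same comparisons, beside 21.3%, 33.9% and 24.1% of all such probe sets. Each share is near its background or rests on 1 to 3 genes, so the counts say nothing particular about luminal genes. MSMB, the luminal gene called for miR-130a, met the brightness rule only with the miR-130a arrays, where it was high. The median log2 difference of the 9 genes was -0.02, -0.04 and -0.01 for miR-130a, miR-203 and miR-205, against -0.01, 0.01 and 0.00 over all genes tested. Any difference among the 4 groups was called for 5 of 9 by the moderated F-test of limma, beside 60.8% of all genes. The 3 comparisons share the same scramble arrays. Arrays of miR-130a and scramble did not overlap for 39.2% of all genes, so a lack of overlap between 2 groups is common here. That share was not computed for the other comparisons, so a lack of overlap there only describes the values.

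**Figure D1:**
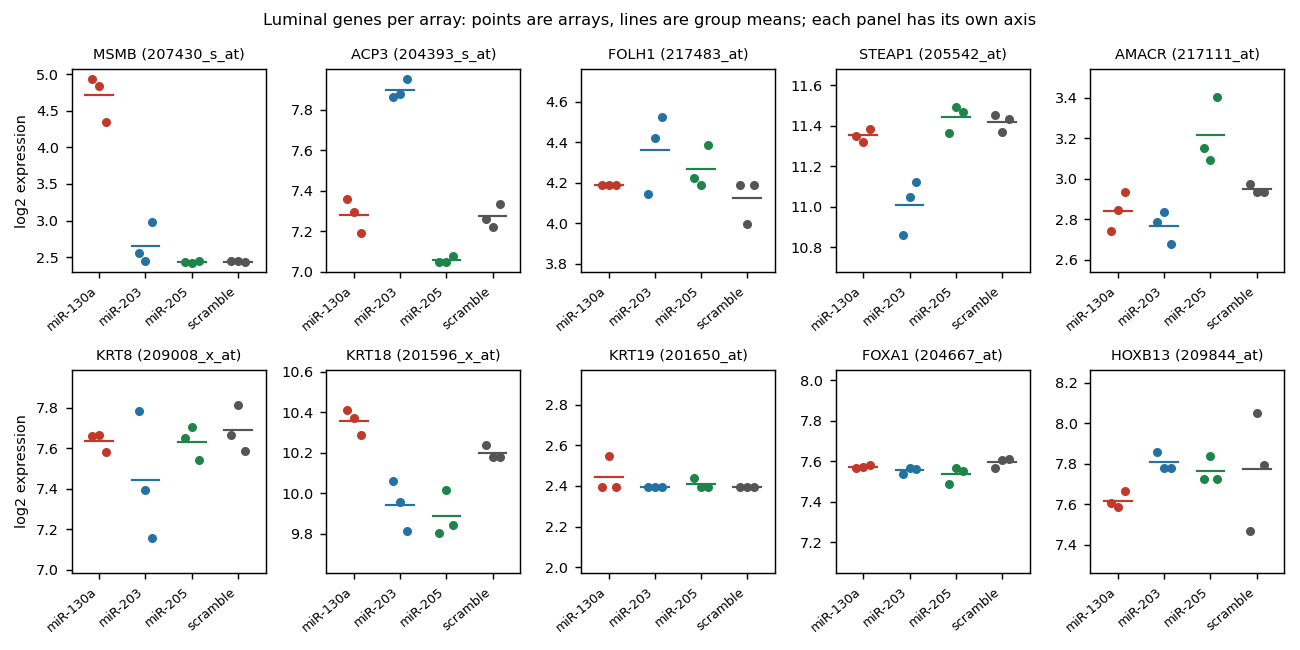
Each panel plots the log2 expression of 1 luminal gene on the 12 arrays (points) with group means (lines), with the 3 microRNA groups left of scramble; the y axis differs between panels. MSMB stands apart in the miR-130a arrays at 4.35 to 4.94 log2, and ACP3 in the miR-203 arrays at 7.86 to 7.95 log2, while FOXA1 covers a range of 0.12 log2 over all arrays.

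Among the secreted proteins, MSMB is an abundant small protein of seminal plasma. Its probe set 207430_s_at read 4.94, 4.84 and 4.35 log2 in miR-130a cells, 2.55, 2.45 and 2.97 in miR-203 cells, 2.44, 2.42 and 2.45 in miR-205 cells, and 2.44, 2.44 and 2.44 in scramble cells. All miR-130a arrays were high and overlapped with no other group, while the miR-205 and scramble arrays lay below their own medians. The level in miR-130a cells was therefore at least 3.85-fold higher than in scramble cells (fitted log2 difference 2.27 ± 0.15 SE, n = 3 arrays each, limma adjusted p = 1.99e-07). The bound takes each dim array at its median where the gene lay lower. Outside miR-130a cells, only miR-203 array 3 lay above its median for this probe set. 207430_s_at thus met the brightness rule only with the miR-130a arrays, where it was high, and its p-value is no separate support.

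The other MSMB probe set, 210297_s_at, gave the same picture. It read 4.25, 4.20 and 4.07 log2 in miR-130a cells, and 2.52, 2.52 and 2.52 in scramble cells, with 2.52, 2.53 and 2.65 in miR-203 cells and 2.52, 2.49 and 2.36 in miR-205 cells. It was at least 2.66-fold higher in miR-130a cells than in scramble cells (limma adjusted p = 5.65e-09 over 10067 probe sets). 210297_s_at also met the brightness rule only through the 3 miR-130a arrays, where it was high, so its p-value is no separate support. It was not tested when any of those arrays was left out. Both probe sets were called in miR-130a against scramble under every alternative in which they were tested. For miR-203, only array 3 lay above its median for 207430_s_at, and the log2 difference from scramble of 0.22 did not pass (adjusted p = 0.273, limma). All miR-130a arrays also lay above all miR-203 arrays in both probe sets. Levels below the array median have no order, so miR-203, miR-205 and scramble are not ranked.

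ACP3 encodes the phosphatase once used as a serum marker of prostate cancer. It read 7.86, 7.88 and 7.95 log2 in miR-203 cells, against 7.26, 7.22 and 7.34 in scramble cells. The miR-203 arrays all lay above every array of the other groups. ACP3 was 1.54-fold higher in miR-203 cells (log2 difference 0.63 ± 0.07 SE, 95% interval 0.48 to 0.77, n = 3 arrays each, limma adjusted p = 1.62e-05), and it was called in all 23 settings tried.

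In miR-205 cells ACP3 read 7.05, 7.05 and 7.08 log2, which lay below the scramble arrays without overlap. The log2 difference was -0.22 ± 0.07 SE (limma adjusted p = 0.0321). This call was lost when any miR-205 array, or scramble array 1 or 3, was left out, with adjusted p between 0.0517 and 0.1085 in limma. In miR-130a cells it read 7.36, 7.30 and 7.19 log2, overlapping scramble, with a log2 difference of 0.01 and a 95% interval from -0.14 to 0.16.

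The order of ACP3 levels was thus miR-203, miR-130a, scramble and miR-205. The step between miR-203 and miR-205 was 0.84 ± 0.07 SE on the log2 scale (limma adjusted p = 9.05e-07), and miR-130a and scramble were not distinguished. miR-130a lay 0.22 log2 above miR-205 (limma adjusted p = 0.0210), a call lost without miR-130a array 1 or 2 or miR-205 array 1 or 2.

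**Figure D2:**
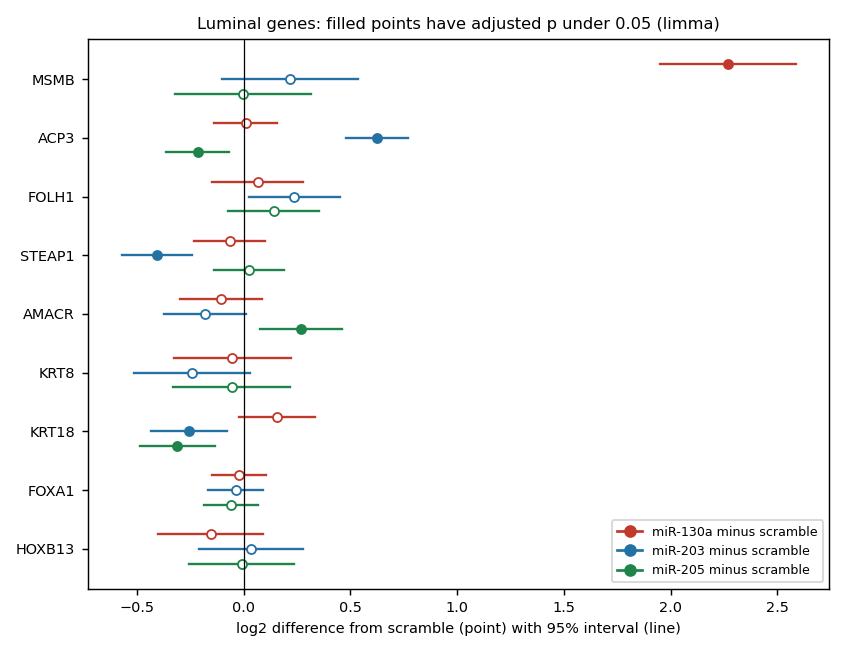
Points are the log2 differences of each microRNA from scramble for the 9 tested luminal genes and lines their 95% intervals from limma; filled points have an adjusted p under 0.05. MSMB in miR-130a cells is plotted at its fitted 2.27, although scramble was too dim to give more than a bound. FOXA1 and HOXB13 hold open points whose intervals all include 0.

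STEAP1, FOLH1 and AMACR are known less for secretion than for the cell surface or metabolism. STEAP1 is a cell-surface member of the metalloreductase family. It read 10.86, 11.05 and 11.12 log2 in miR-203 cells, against 11.45, 11.37 and 11.43 in scramble cells. No miR-203 array reached any array of the other groups. STEAP1 fell to 0.755 of the scramble level in miR-203 cells (log2 difference -0.41 ± 0.08 SE, n = 3 arrays each, limma adjusted p = 0.0012) and was called in every setting, with adjusted p up to 0.0152.

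In the other cells STEAP1 did not pass the threshold. It read 11.35, 11.32 and 11.39 log2 in miR-130a cells and 11.37, 11.50 and 11.47 in miR-205 cells, both close to scramble. The log2 differences from scramble were -0.07 (95% interval -0.23 to 0.10) for miR-130a and 0.03 (95% interval -0.14 to 0.19) for miR-205. The order was miR-205, scramble, miR-130a and miR-203, and only the last step, of 0.34 log2 between miR-130a and miR-203 (limma adjusted p = 0.0031), exceeded the spread.

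AMACR, a racemase of branched-chain fatty acid breakdown in peroxisomes and mitochondria, is a tissue marker of prostate cancer. Its 3 bright probe sets are annotated both to AMACR and to C1QTNF3-AMACR, a read-through transcript with its neighbour, so a value cannot be assigned to either alone. They were compared in a separate fit over 11403 probe sets, added after the data were seen. Probe set 209425_at read 6.40, 6.14 and 6.11 log2 in miR-205 cells, against 4.85, 4.85 and 4.40 in scramble cells. All miR-205 arrays lay far above all other arrays. The level was 2.87-fold higher in miR-205 cells (log2 difference 1.52 ± 0.15 SE, limma adjusted p = 2.20e-05).

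The other shared sets moved with it. Probe set 209426_s_at read 6.53, 6.42 and 6.44 log2 in miR-205 cells, against 5.48, 5.44 and 5.52 in scramble cells. Probe set 209424_s_at read 6.89, 6.92 and 6.85 log2 in miR-205 cells, against 5.99, 6.24 and 6.15 in scramble cells. Neither overlapped between the groups, with log2 differences of 0.99 ± 0.08 and 0.76 ± 0.09 SE. All 3 rises were called in each of 15 fits, and 23.6% of all probe sets were called in miR-205 against scramble.

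In miR-203 cells 2 of the 3 sets were called lower, beside 33.5% of all probe sets. Probe set 209424_s_at read 5.79, 5.75 and 5.85 log2 in miR-203 cells, below every scramble array, with a log2 difference of -0.33 ± 0.09 SE (limma adjusted p = 0.0102, called in all 15 fits). Probe set 209426_s_at read 5.24, 5.35 and 5.01 log2 there, with a difference of -0.28 ± 0.08 SE (limma adjusted p = 0.0200), lost without miR-203 array 3 (0.0698) or scramble array 3 (0.0630). Probe set 209425_at read 4.12, 4.60 and 4.35 log2, overlapped scramble and did not pass (-0.34 log2, limma adjusted p = 0.0965). It passed without miR-203 array 2 (-0.46 log2, 0.0404) or scramble array 3 (-0.49 log2, 0.0242), and was -0.22 log2 without miR-203 array 1.

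In miR-130a cells the 3 sets read 4.53 to 4.84, 5.45 to 5.50 and 5.86 to 6.13 log2 for 209425_at, 209426_s_at and 209424_s_at, and 0 of the 3 passed against scramble, beside 21.0% of all probe sets. The order of the means was miR-205 first in every set and miR-203 last, with miR-130a and scramble between them and not distinguished from each other.

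The only tested probe set annotated to AMACR alone, 217111_at, lay close to the array median. It read 3.15, 3.09 and 3.40 log2 in miR-205 cells, against 2.97, 2.94 and 2.94 in scramble cells, with no overlap. The log2 difference was 0.27 ± 0.09 SE (limma adjusted p = 0.0394), and the call was lost under 9 other settings, with adjusted p from 0.0519 to 0.1691. It read 2.79, 2.84 and 2.68 in miR-203 cells and 2.74, 2.85 and 2.94 in miR-130a cells. The other AMACR set, 217113_at, stayed within 2.36 to 2.39 log2 and was not tested.

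**Figure D3:**
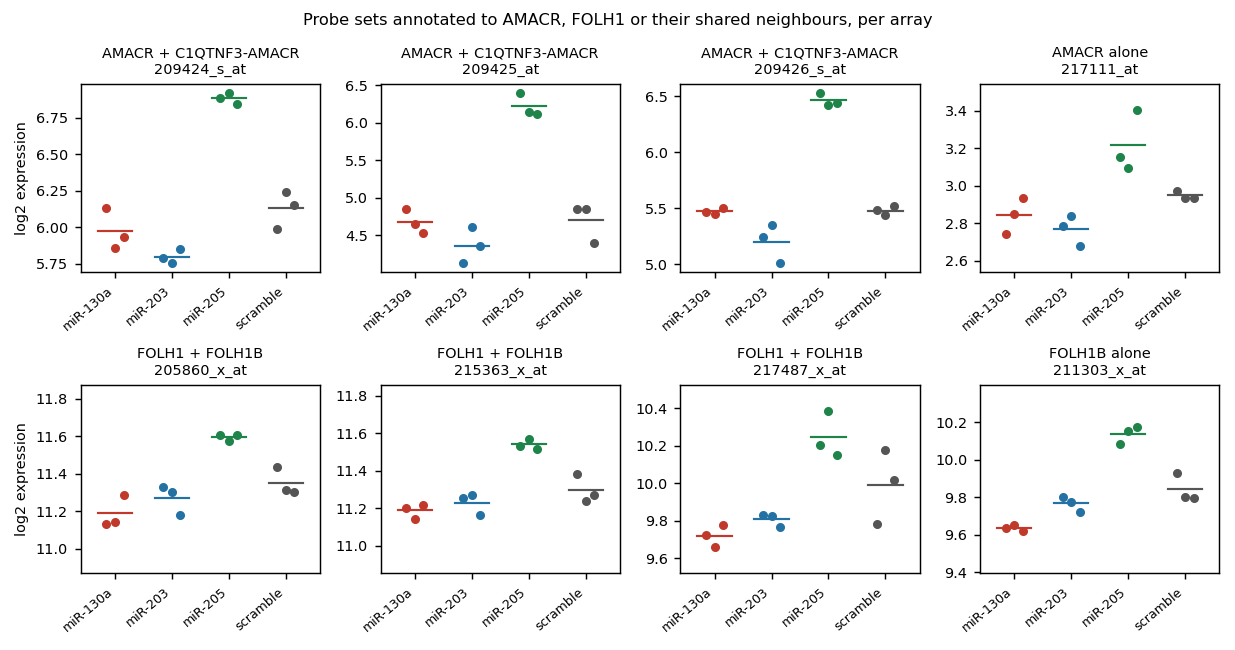
Each panel plots log2 expression on the 12 arrays (points) with group means (lines), with the 3 microRNA groups left of scramble, for probe sets shared by AMACR and C1QTNF3-AMACR, the set of AMACR alone, those shared by FOLH1 and FOLH1B, and FOLH1B alone. In each panel the miR-205 mean is the highest; for 209425_at its arrays sit at 6.11 to 6.40 log2, against 4.40 to 4.85 in scramble.

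FOLH1 is a membrane peptidase that frees folate and glutamate from their conjugates and is imaged in the clinic as PSMA. Its bright probe sets are shared with FOLH1B, a near copy. Probe set 205860_x_at read 11.61, 11.58 and 11.61 log2 in miR-205 cells, against 11.44, 11.32 and 11.30 in scramble cells. The groups did not overlap, and the log2 difference was 0.24 ± 0.07 SE (limma adjusted p = 0.0264). That call was lost without miR-205 array 1 or 3 or scramble array 2 or 3, with adjusted p between 0.0709 and 0.0877.

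Probe set 215363_x_at read 11.53, 11.57 and 11.52 log2 in miR-205 cells, against 11.38, 11.24 and 11.27 in scramble cells. Its log2 difference was also 0.24 (limma adjusted p = 0.0174), lost without miR-205 array 2 or scramble array 2 or 3 (0.0503 to 0.0594). Probe set 217487_x_at read 10.20, 10.38 and 10.15 log2 in miR-205 cells, against 9.78, 10.18 and 10.02 in scramble cells, overlapped and did not pass (0.25 log2, limma adjusted p = 0.0804). Without scramble array 2 it passed (0.35 log2, 0.0232), and without scramble array 1 the difference was 0.15 log2. Scramble arrays thus spread more widely in this set than in the others.

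In miR-130a and miR-203 cells these 3 sets did not pass against scramble, and both groups were called lower than miR-205 in each set, beside 30.7% (miR-130a against miR-205) and 34.9% (miR-203 against miR-205) of all probe sets. For 205860_x_at the difference from miR-205 was -0.41 ± 0.07 SE for miR-130a and -0.33 ± 0.07 SE for miR-203 on the log2 scale. Without scramble array 1, 217487_x_at was called lower than scramble in miR-130a (-0.38 log2, limma adjusted p = 0.0111) and in miR-203 (-0.29 log2, limma adjusted p = 0.0266). The set annotated to FOLH1B alone, 211303_x_at, read 10.09, 10.15 and 10.18 log2 in miR-205 cells, against 9.93, 9.80 and 9.79 in scramble cells (log2 difference 0.30, limma adjusted p = 0.00548). Probes of an _x_at set can match other transcripts, so this set may also read FOLH1, and a rise of FOLH1B itself was not tested.

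The set annotated to FOLH1 alone, 217483_at, showed another pattern. It read 4.15, 4.42 and 4.52 log2 in miR-203 cells, 4.22, 4.19 and 4.39 in miR-205 cells, 4.19, 4.19 and 4.19 in miR-130a cells, and 4.19, 3.996 and 4.19 in scramble cells. Exactly 1 value was shared by 4 arrays, which narrows the measured spread, and miR-203 overlapped scramble. The miR-203 difference of 0.24 ± 0.10 SE log2 did not pass (limma adjusted p = 0.0753), but it passed without miR-203 array 1 (0.35 log2, 0.0099), with quantile normalization (0.0445) and with array weights (0.0205). Without miR-203 array 3 it was 0.16 log2 (0.257).

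Among the keratins, only KRT18 passed the threshold against scramble with the main settings. For miR-203 the KRT8 difference was of similar size (-0.24 log2, against -0.26 for KRT18), and the 2 genes were not tested against each other. The KRT18 probe set 201596_x_at read 10.06, 9.96 and 9.82 log2 in miR-203 cells and 9.81, 10.02 and 9.84 in miR-205 cells. In scramble cells it read 10.24, 10.18 and 10.18. Both microRNA groups lay below scramble on every array. The log2 difference was -0.31 ± 0.08 SE for miR-205 (0.806 of the scramble level, limma adjusted p = 0.0133) and -0.26 ± 0.08 SE for miR-203 (0.838 of the scramble level, limma adjusted p = 0.0265).

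Both KRT18 calls rested on few arrays. The miR-205 call was lost without miR-205 array 1 (limma adjusted p = 0.0599) or 3 (0.0510). The miR-203 call was lost without miR-203 array 2 or 3, without scramble array 1 or 3, and when only the 6 arrays compared were fitted, with limma adjusted p between 0.0522 and 0.1002.

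In miR-130a cells KRT18 read 10.41, 10.37 and 10.29 log2, above every scramble array, yet the difference of 0.16 ± 0.08 SE did not pass (limma adjusted p = 0.191). Arrays of these groups do not overlap for 39.2% of all genes. The order was miR-130a, scramble, miR-203 and miR-205, with miR-203 and miR-205 not distinguished. miR-130a lay 0.41 ± 0.08 SE log2 above miR-203 (limma adjusted p = 0.0013) and 0.47 ± 0.08 SE above miR-205 (0.0007).

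KRT8, the filament partner of KRT18, did not pass in any comparison with scramble. Its probe set 209008_x_at read 7.79, 7.39 and 7.16 log2 in miR-203 cells, against 7.66, 7.81 and 7.59 in scramble cells. The miR-203 arrays were widely spread and overlapped scramble. The difference was -0.24 ± 0.13 SE log2 (95% interval -0.52 to 0.03, limma adjusted p = 0.152), and 1 array moved it in either direction: it was -0.41 and passed without miR-203 array 1 (limma adjusted p = 0.0059), and was -0.10 without miR-203 array 3 (0.545). It also passed with array weights (0.0492).

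KRT8 read 7.58 to 7.66 log2 in miR-130a cells and 7.54 to 7.70 in miR-205 cells, with differences from scramble of -0.05 (95% interval -0.33 to 0.22) and -0.06 (95% interval -0.33 to 0.22). The third keratin, KRT19, found in luminal and intermediate cells of the gland, had 1 probe set, at 2.39 to 2.55 log2 and above the median on no array, and was not tested. Probe sets ending in _x_at hold probes that can match other transcripts, and KRT8 and KRT18 have many processed pseudogenes, so these values may include related sequences.

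FOXA1 opens chromatin for other transcription factors, and HOXB13 is a homeobox factor of the prostate and the posterior body. FOXA1 read 7.57, 7.57 and 7.58 log2 in miR-130a cells, 7.54, 7.57 and 7.56 in miR-203 cells, 7.49, 7.57 and 7.55 in miR-205 cells, and 7.57, 7.61 and 7.61 in scramble cells. All groups overlapped, and exactly 1 value recurred on 4 arrays. The differences from scramble were -0.02, -0.04 and -0.06 log2, each with an SE of 0.06, and the lowest bound of their 95% intervals was -0.19.

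HOXB13 read 7.61, 7.59 and 7.66 log2 in miR-130a cells, 7.86, 7.78 and 7.78 in miR-203 cells, 7.72, 7.84 and 7.72 in miR-205 cells, and 7.47, 8.05 and 7.79 in scramble cells. The scramble arrays were spread more widely than any other group and overlapped all of them. The differences were -0.15, 0.03 and -0.01 log2, each with an SE of 0.11. Scramble array 1, the lowest for HOXB13, also had the highest difference between 3′ and 5′ control probe sets, a sign of RNA quality, at 2.66 log2 for ACTB and 0.90 for GAPDH, against 2.18 to 2.54 and 0.56 to 0.80 on the other 11 arrays. Its part in the HOXB13 result was not tested. Without it, HOXB13 was lower in miR-130a cells by a log2 difference of -0.30 (limma adjusted p = 0.0254).

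Between microRNAs, 4 of the 9 tested luminal genes were called in miR-130a against miR-203, 3 higher (MSMB, KRT18, STEAP1) and 1 lower (ACP3), beside 41.2% of all genes (21.1% higher and 20.1% lower). In miR-130a against miR-205, 4 were called, 3 higher (MSMB, ACP3, KRT18) and 1 lower (AMACR), beside 33.6% (18.2% higher and 15.4% lower). In miR-203 against miR-205, 3 were called, 1 higher (ACP3) and 2 lower (STEAP1, AMACR), beside 37.9% (21.0% higher and 16.9% lower). miR-203 and miR-205 thus differed in opposite senses for ACP3 and the AMACR probe sets, and both lay below miR-130a for KRT18.

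A wider list of other luminal and prostate genes held 68 symbols, of which 52 were named on the arrays and 32 tested. In miR-130a cells 6 were higher and 4 lower than in scramble cells, with a median log2 difference of 0.02, beside 23.6% of all genes called. AGR2, a disulfide isomerase of secretory cells, was higher by 0.79 log2, EHF, an epithelial ETS factor, by 0.67 and GCNT1, a glycosyltransferase, by 0.67. AZGP1, a secreted glycoprotein, had a difference of -0.81, and KLK3, the prostate-specific antigen, of -0.28 (limma adjusted p = 0.0206).

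In miR-203 cells 3 of the 32 were higher and 14 lower, with a median of -0.23 log2, beside 17.3% higher, 18.9% lower and a median of 0.01 over all genes. The androgen-induced protease genes KLK2, TMPRSS2 and KLK3 had log2 differences of -1.60, -1.30 and -1.24, and the transporter ABCC4 of -0.99. GRHL2, an epithelial transcription factor, had -0.37 (limma adjusted p = 0.0087), while GATA2, a factor that acts with FOXA1, was higher by 0.20 (0.0477). ACP3 therefore rose in cells in which KLK2, KLK3 and STEAP1 fell.

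In miR-205 cells 10 were higher and 3 lower, with a median of 0.04 log2, beside 11.3% higher and 14.8% lower over all genes. NDRG1, a stress and androgen-induced gene, was higher by 1.14 log2, RAB3B, a vesicle GTPase, by 0.87, KLK2 by 0.68 and KLK3 by 0.56 (limma adjusted p = 0.0002), and XBP1, a factor of the secretory pathway, had a difference of -0.69. SPDEF, a prostate ETS factor, did not pass in any of the 3, at -0.03, 0.02 and -0.04 log2 for miR-130a, miR-203 and miR-205.

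The partners of single luminal genes were fewer. Of 9 tested partners and linkers of the simple keratins, 0 were higher and 1 lower in miR-130a cells, 2 higher and 3 lower in miR-203 cells, and 0 higher and 1 lower in miR-205 cells, beside 23.6%, 36.2% and 26.1% of all genes called. The desmosomal plaque gene PKP3 was lower in miR-130a (-0.35 log2) and miR-203 cells (-0.38), and DSP, the desmosome's keratin linker, was higher in miR-203 cells (0.33). A list of FOXA1 and HOXB13 partners held 5 tested genes, FOXA1 and HOXB13 themselves included. In it 1 was called in miR-130a cells, 1 in miR-203 cells and 0 in miR-205 cells, beside the same shares of all genes. HDAC3, a histone deacetylase, was higher in miR-130a cells (0.59 log2), and GATA2 was higher in miR-203 cells as above.

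Over the 12 arrays, the tested genes with the pattern most like each called luminal gene were found by Pearson's r of the log2 values, as a description. All arrays of a group share their treatment, so r mostly follows the group means. For MSMB these were TNFAIP3, which encodes an inhibitor of NF-kappa-B signalling (r = 0.994), IFNB1, interferon beta (0.987), and CFB, complement factor B (0.987). IFNB1 averaged 5.07 log2 in miR-130a cells, 2.57 in miR-203 cells, 2.36 in miR-205 cells and 2.37 in scramble cells, and CFB averaged 4.62 in miR-130a cells and 2.36 in every other group. The MSMB value of 2.97 on miR-203 array 3 stood above its group, as did TNFAIP3 there (2.96). On the miR-203 arrays IFNB1 lay below every array's median, at 2.47 to 2.74 log2, so its values there are not ranked. CFB read 2.36 on all arrays of that group.

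For ACP3 they were CCDC86, COLEC12 and YRDC (r = 0.978, 0.975 and 0.974), which were also highest in miR-203 and lowest in miR-205 cells. For STEAP1 they were MTR, the methionine synthase, EIF3L, a translation initiation factor subunit, and PRKAR2B, a protein kinase A regulatory subunit (0.977, 0.973 and 0.972). For KRT18 they were UFD1, NONO and SLC25A5 (0.974, 0.956 and 0.953), and for AMACR, read by its dim set 217111_at, DSTYK, MAT2B and PTPRM (0.918, 0.915 and 0.905).

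**Figure D4:**
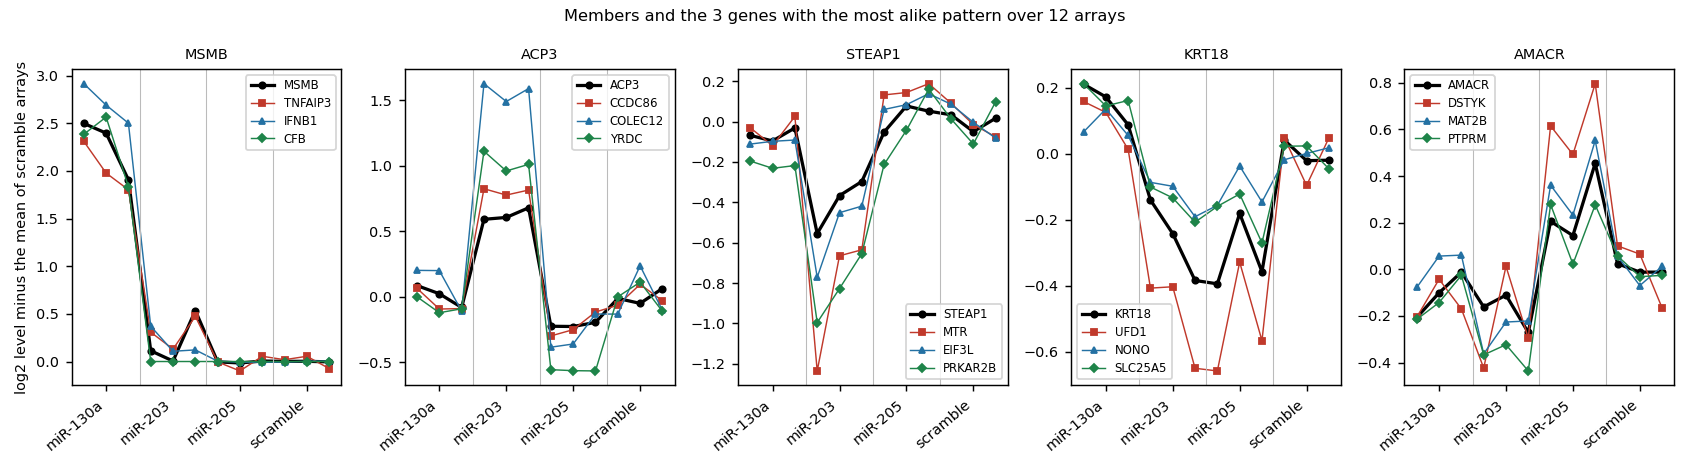
Each panel shows 1 called luminal gene (black) and the 3 tested genes with the highest r over the 12 arrays (colours), as log2 level minus the mean of the scramble arrays, with the arrays of the 3 microRNAs left of scramble. MSMB, TNFAIP3, IFNB1 and CFB are high on the 3 miR-130a arrays; ACP3 and its 3 genes are high on the miR-203 arrays.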

How the data were processed

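Expression was deposited as 1 table of log2 values for 22277 probe sets on 12 arrays. R 2.9.0, RMA and limma are named, per the submitters' processing notes, without a role. For the background method, annotation version and genome build the entry is: not given in the sources used here. Between 29.6% and 31.6% of an array's probe sets sit at its lowest value. All value columns matched a sample label (0 unused). Names came from the platform annotation (19070 with 1 symbol, 1043 with several, 2164 with none), and 19058 of the first were found in RefSeq (GRCh38.p14).

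The probe set of highest mean stood for a gene, and 6821 genes were tested, above the array median on at least 3 arrays. Group means over all 12 arrays were fitted with limma 3.58.1 in R 4.3.3 (lmFit, eBayes, 8 residual and 4.84 prior degrees of freedom, two-sided, Benjamini-Hochberg, threshold 0.05), after a test on simulated data. Other probe sets were fitted over 10067 sets with 1 symbol, or over 11403 for shared ones. A gene below the median on all 3 arrays of a group is given as a bound. P-values cover only the spread between these cultures. Same-numbered arrays correlated in their deviations from the group means with r from -0.11 to 0.31. The 3 of 18 pairs over 0.1 were the 3 pairs of miR-203 with miR-205 (0.171, 0.105 and 0.313). Those of miR-130a were weaker but all positive, at 0.094, 0.047 and 0.097 with miR-203 and 0.065, 0.076 and 0.028 with miR-205. The numbers may thus pair the 3 microRNA groups, most clearly miR-203 with miR-205. Some pairs of unlike number also exceeded 0.1, such as miR-203 array 1 with scramble array 3 (0.163). The labels name no shared batch.

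The luminal genes and lists were chosen with earlier results of these data known. Named genes are all 10 members, the 3 genes most alike in pattern to each member called by the F-test, up to 4 called genes of each list per comparison, and KLK3, GATA2, GRHL2 and SPDEF. Some items of the rule are not reported here. Alternatives were the filter, normalization, array weights, choice of probe set, replicate block, arrays fitted and each array left out. MicroRNA sequences are from RefSeq.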

Additional observations from a re-analysis of the deposited data

How the results depend on the processing

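Of 1680 refits of single luminal genes and shared probe sets, 1594 kept their direction and side of the threshold, 36 lost a call, 21 gained one with the same sign and 29 changed sign. All 29 were of differences that did not pass with all arrays and the main settings, and 28 of them did not pass after the change either. The exception was FOLH1 in miR-203 against miR-205, where admitting probe sets with 2 symbols gave -0.33 log2 (limma adjusted p = 0.0033) in place of 0.10. The same choice gave FOLH1 -0.16 in miR-130a and -0.083 in miR-203 against scramble. Quantile normalization gave ACP3 -0.013 in miR-130a against scramble, FOXA1 -0.0064 in miR-130a against miR-203 and HOXB13 0.0042 in miR-205 against scramble, and array weights gave ACP3 -0.020 in miR-130a and HOXB13 -7.4e-05 in miR-203 against scramble. With 1 array left out, the log2 differences against scramble that changed sign ranged, in miR-130a, from -0.029 to 0.054 for ACP3, from -0.10 to 0.0093 for KRT8, from -0.17 to 0.052 for 209425_at and from -0.024 to 0.015 for 209426_s_at; in miR-203, from -0.12 to 0.17 for HOXB13; and in miR-205, from -0.16 to 0.13 for HOXB13, from -0.11 to 0.0062 for KRT8, from -0.0095 to 0.00058 for MSMB and from -0.00036 to 0.064 for STEAP1. Between microRNAs they ranged from -0.0030 to 0.037 for FOXA1 and from -0.0022 to 0.12 for KRT18 in miR-203 against miR-205, and from -0.042 to 0.039 for KRT8 in miR-130a against miR-205. MSMB in miR-130a, ACP3 and STEAP1 in miR-203, and the 3 shared AMACR probe sets in miR-205 kept their calls throughout. Counts of luminal genes called depended on single arrays. With each array left out in turn, 1 to 2 were called in miR-130a against scramble (2 without scramble array 1), 2 to 5 in miR-203 against scramble (5 without miR-203 array 1, and 5 with array weights) and 0 to 3 in miR-205 against scramble (0 without miR-205 array 1 or 3, 1 without scramble array 1 or 3). Their probe sets gave 1 to 3, 2 to 5 and 0 to 3, against 2, 3 and 3 with all arrays (1 without any 1 of the miR-130a arrays in miR-130a against scramble, where 210297_s_at no longer met the brightness filter; 5 without miR-203 array 1 in miR-203 against scramble; in miR-205 against scramble, 0 without miR-205 array 1 or 3 and 1 without miR-130a array 2 or scramble array 1 or 3). With the replicate block, 1 probe set and 2 luminal genes were called in miR-205 against scramble, the luminal counts of the other comparisons stayed at 1, 3, 4, 4 and 3, and 1631, 2486 and 1751 of all genes were called in miR-130a, miR-203 and miR-205 against scramble, against 1610, 2466 and 1781 without it. In miR-203 against miR-205, the groups whose numbers pair most clearly by correlation, the block changed no luminal gene's or shared probe set's call. It called 2583 of all genes there, against 2585 without the block. The 9 of 12 arrays that correlated best with their own number were all microRNA arrays. This is a hint from the data and not from the design. AMACR alone was not tested with a filter at the 60th percentile or with the mean of its probe sets. Genes near the array median, such as AMACR alone, and probe sets with repeated values, such as FOLH1 alone, are measured least well.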

Other observations

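Some genes around the metabolic roles of AMACR, FOLH1 and STEAP1 were also called against scramble. Of 8 tested peroxisomal genes, 2 were higher and 2 lower in miR-130a cells, 3 higher and 2 lower in miR-203 cells, and 4 higher and 1 lower in miR-205 cells, beside 23.6%, 36.2% and 26.1% of all genes called. CROT, the carnitine octanoyltransferase that exports shortened acyl chains, was higher in all 3, by 0.87, 0.36 and 0.63 log2 for miR-130a, miR-203 and miR-205, and PEX2, a peroxisome assembly factor, by 0.41, 0.43 and 0.60. ACAA1, the peroxisomal thiolase, had a log2 difference of -0.93 in miR-130a cells, PHYH, which starts phytanic acid breakdown, of -0.53 in miR-130a and -0.29 in miR-205 cells, and HSD17B4, which follows AMACR in the pathway, of -0.36 in miR-203 cells. These comparisons share the scramble arrays.

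Of 4 tested folate genes, 1 was higher and 0 lower in miR-130a cells. In miR-203 and in miR-205 cells, 1 was higher and 1 lower. Beside these counts, 23.6%, 36.2% and 26.1% of all genes were called for miR-130a, miR-203 and miR-205. FOLR1, a folate receptor, was higher by 0.62, 0.80 and 0.78 log2 in miR-130a, miR-203 and miR-205 cells. GGH, a folate hydrolase of the lysosome, had differences of -0.39 in miR-203 and -0.99 in miR-205 cells. Of 4 tested iron genes, 1 was higher and 1 lower in miR-130a and in miR-203 cells, beside the same shares of all genes. In miR-205 cells, 1 was higher and 0 lower. FTL, the ferritin light chain, had differences of -0.36 in miR-130a and -1.26 in miR-203 cells. SLC11A2, an iron importer, was higher by 0.31 and 0.64 in the same cells, and TFRC, the transferrin receptor, by 0.33 in miR-205 cells. All were called by limma with adjusted p under 0.05 over all genes tested.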
